A study of Homo sapiens with 14 samples.

Results

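The cyclin-dependent kinase (CDK) inhibitors and the retinoblastoma (RB) family were followed through long-term culture of colorectal cancer cells. The 10 genes were taken by symbol: CDKN1A, CDKN1B, CDKN1C, CDKN2B, CDKN2C, CDKN2D, CDKN3, RB1, RBL1 and RBL2. All 10 were found among the 36601 genes of the single-cell matrices and among the 60624 genes of the bulk tables. In GENCODE 44 (GRCh38), the plus strand holds CDKN1A at chr6:36676460-36687337, CDKN1B at chr12:12685498-12722369, CDKN2C at chr1:50960745-50974634, CDKN3 at chr14:54396849-54420218, RB1 at chr13:48303744-48599436 and RBL2 at chr16:53433977-53491648. The minus strand holds CDKN1C at chr11:2883213-2885775, CDKN2B at chr9:22002903-22009305, CDKN2D at chr19:10566460-10569059 and RBL1 at chr20:36996349-37095997. CDKN2B lies within the span of the antisense gene CDKN2B-AS1, and LPAR6 lies on the opposite strand within RB1.

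SW620 is a line from a colorectal cancer metastasis, and SW480 comes from the primary tumor of the same patient. SW620 cells (called SW620-FLAG in the study, for the empty vector they carry) and SW620-TET2CD cells, which overexpress the catalytic domain of the DNA demethylase TET2, were grown without passage. There were 8 single-cell libraries, 1 for each line on days 6, 9, 12 and 15, and 6 bulk libraries with 1 per group, namely SW480 and SW620 on day 6 and the inside and outside of SW620 and SW620-TET2CD colonies on day 15. Nothing in the labels says whether a library came from a separate culture, so p-values measure the spread between these libraries, which may be technical. Comparisons of days 12 and 15 with days 6 and 9 held no term for the single day. Changes between the 2 days of a side therefore add to that spread.

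CDK inhibitors of the CIP/KIP family (CDKN1A, CDKN1B and CDKN1C, encoding p21, p27 and p57) bind cyclin-CDK complexes broadly, whereas the INK4 family (here CDKN2B, CDKN2C and CDKN2D, encoding p15, p18 and p19) binds CDK4 and CDK6. CDKN3 is a phosphatase that removes an activating phosphate from CDK2. The RB family proteins RB1, RBL1 (p107) and RBL2 (p130) hold E2F factors in check until CDKs phosphorylate them, and RBL2 is known as the member that dominates in resting cells, while many cell cycle promoters carry E2F sites or CHR elements.

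Of 67056 cell barcodes, 48282 were kept, with 3894 to 8154 cells and 48186195 to 74185723 unique molecular identifiers (UMIs) per library. Between 11 and 31 barcodes were shared by any pair of libraries, and 548 occurred in more than one. Summed colorectal epithelium markers reached 10881 to 14048 CPM (the share of a library's UMIs, scaled to 1000000) in the early libraries (days 6 and 9) and 9466 to 13415 in the late libraries (days 12 and 15). The 8 fibroblast markers summed to 16.7 to 28.8 CPM early and 8.49 to 12.9 late with FAP at 0, the 8 immune markers to 7.49 to 17.5 and 24.0 to 57.6 with MS4A1 at 0, and the 6 endothelial markers to 3.90 to 4.85 and 12.1 to 28.4 with KDR at 0. Their part in the results was not tested. TET2, the targeted gene, was at 2.11 to 3.90 CPM in SW620 and 40.2 to 106.6 CPM in SW620-TET2CD.

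Promoters of the members were read from RefSeq (GRCh38.p14, 250 bases before to 50 after the transcription start), which matched 9 of the 10 genes, all but CDKN1C. The RB1 entry starts inside the gene, so the window at the RB1 start given above was not analysed here. The promoters of 3 genes are shown, CDKN2B for the largest rise among the members below and CDKN3 and RBL1 for the largest falls. Capitals mark the CHR element, with letters TTTGAA, and the CCAAT box, both searched on either strand. They also mark E2F motifs on either strand, searched as TTTGGCGC, TTTCCCGC, TTTGCCGC or TTTCGCGC, and no motif overlaps another in these windows.
CDKN3, chr14:54396757-54397056, plus strand: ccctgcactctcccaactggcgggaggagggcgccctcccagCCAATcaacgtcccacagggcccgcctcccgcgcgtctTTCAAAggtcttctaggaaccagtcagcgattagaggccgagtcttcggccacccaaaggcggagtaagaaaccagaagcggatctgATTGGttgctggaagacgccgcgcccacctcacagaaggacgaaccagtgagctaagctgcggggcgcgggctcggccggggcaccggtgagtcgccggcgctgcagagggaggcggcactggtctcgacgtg
RBL1, chr20:37095948-37096247, minus strand: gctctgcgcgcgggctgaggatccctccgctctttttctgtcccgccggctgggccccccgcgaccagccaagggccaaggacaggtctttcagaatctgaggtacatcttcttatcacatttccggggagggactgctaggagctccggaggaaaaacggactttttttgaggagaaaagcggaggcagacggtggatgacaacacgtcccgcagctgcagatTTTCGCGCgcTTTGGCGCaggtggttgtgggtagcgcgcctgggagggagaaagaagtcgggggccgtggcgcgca
CDKN2B, chr9:22009256-22009555, minus strand: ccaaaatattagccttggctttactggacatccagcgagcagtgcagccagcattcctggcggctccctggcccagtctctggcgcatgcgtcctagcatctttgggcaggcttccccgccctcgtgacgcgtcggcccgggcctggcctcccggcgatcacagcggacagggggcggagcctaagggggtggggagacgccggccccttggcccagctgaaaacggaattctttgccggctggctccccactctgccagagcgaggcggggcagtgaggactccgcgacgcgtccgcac
The CDKN3 promoter held 1 CHR match and 2 CCAAT matches. The RBL1 promoter held 2 E2F matches, starting at positions -26 and -16 from the start site, and the CDKN2B promoter held none of these motifs. Leaving aside CDKN1C and RB1, CHR and CCAAT matches occurred both in members that rose and in members that fell. E2F matches occurred in RBL1 alone, which fell, and 1 gene cannot show whether this motif separates the members. RBL2, which rose, held 1 CHR match at 1 of its start sites and 1 CCAAT match at the other. CDKN1B, which rose, held 3 CCAAT matches. CDKN2C, which fell, held no CHR or E2F match at any of its 3 start sites and 1 CCAAT match at 1 of them. Of 35116 promoters of 300 bases, 15.2% held a CHR match, 34.6% a CCAAT match and 3.31% an E2F match. The GC box (GGGCGG), also searched but not marked above, was in 44.95%. It was matched in members that rose, such as CDKN2B, and in CDKN2C, which fell. The matches are letters in these windows and are no evidence of binding.

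The first question was how the members moved between the early and the late days. Of the 10 members, 9 passed the test in single cells summed by library, 5 higher and 4 lower in the late libraries (edgeR quasi-likelihood test with the line as a block, Benjamini-Hochberg adjusted over 16993 genes). Across all genes 57.7% passed, so a count of 9 members says little about these genes in particular. Ranges of early and late CPM did not overlap for 8 members, beside 51.9% of all genes. In sums over cells, fewer cells with a transcript and less of it per cell cannot be told apart.

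**Figure D1:**
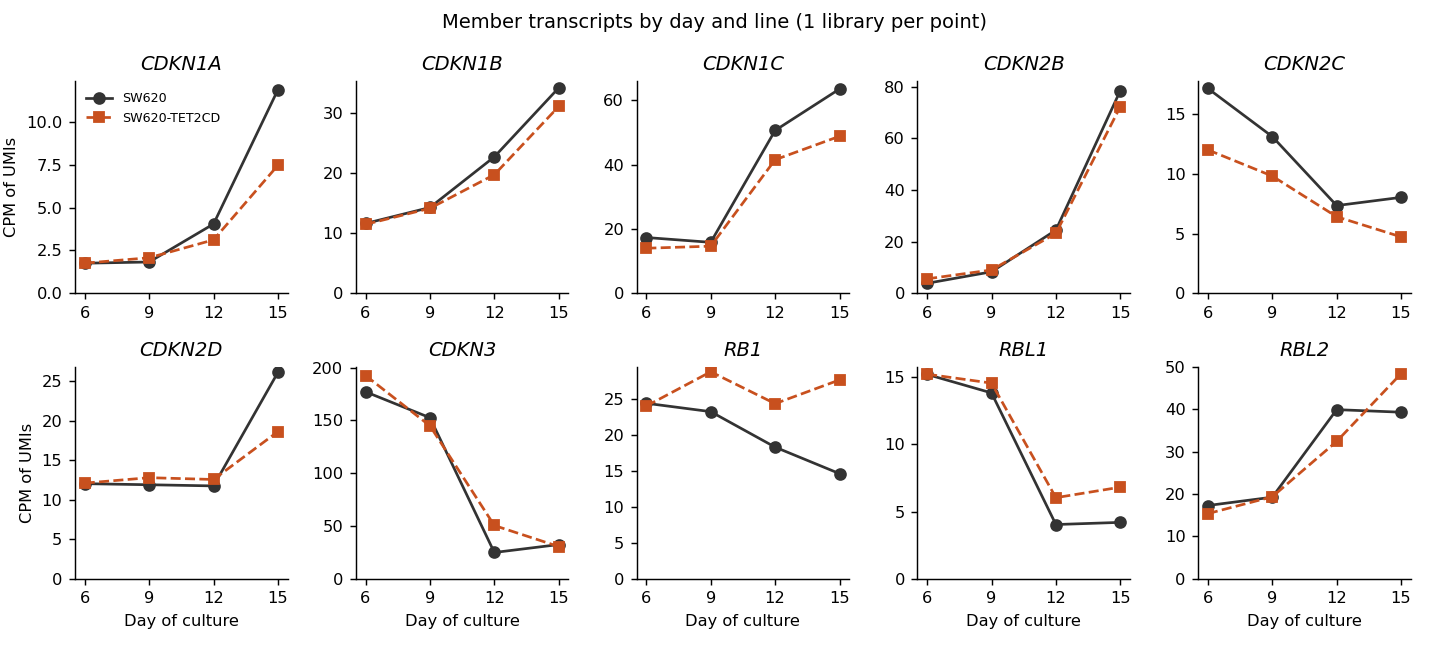
CPM of UMIs for the 10 members on days 6, 9, 12 and 15, with 1 library per point, circles for SW620 and squares for SW620-TET2CD. CDKN2B rises from 3.82 to 78.4 CPM and CDKN3 falls from 177 to 32.4 CPM in SW620.

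All 3 CIP/KIP genes rose. For CDKN1A, an inhibitor that p53 induces, SW620 held 1.75, 1.82, 4.04 and 11.9 CPM in order of day (6, 9, 12, 15), and SW620-TET2CD 1.75, 2.07, 3.11 and 7.47 CPM. Its early libraries rested on 99 to 150 UMIs each, and its log2 fold change was 1.71 (SE 0.379, edgeR adjusted p = 0.003045). CDKN1B was at 11.6, 14.2, 22.7 and 34.1 CPM in SW620 and at 11.4, 14.1, 19.7 and 31.0 in SW620-TET2CD. It climbed at each sampled day in both lines (log2 fold change 0.96, SE 0.189, edgeR adjusted p = 0.001601). CDKN1C was at 17.3, 15.8, 50.6 and 63.5 CPM in SW620 and at 14.0, 14.6, 41.5 and 48.8 in SW620-TET2CD. Its late libraries stood apart from all early ones (log2 fold change 1.61, SE 0.133, edgeR adjusted p = 1.344e-05).

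The INK4 genes went different ways. CDKN2B, known as a target of TGF-beta signaling, was at 3.82, 8.27, 24.4 and 78.4 CPM in SW620 and at 5.54, 8.99, 23.1 and 72.2 in SW620-TET2CD. It had the largest fold change among the members at 2.80 on the log2 scale (SE 0.459, edgeR adjusted p = 0.000514). CDKN2C was at 17.2, 13.1, 7.35 and 8.04 CPM in SW620 and at 12.0, 9.83, 6.41 and 4.72 in SW620-TET2CD, all late values lying below all early ones (log2 fold change -1.08, SE 0.165, edgeR adjusted p = 0.0003292). CDKN2D was at 12.0, 11.9, 11.8 and 26.1 CPM in SW620 and at 12.1, 12.8, 12.6 and 18.6 in SW620-TET2CD. Only its day 15 libraries stood higher, and late against early it did not pass (log2 fold change 0.39, SE 0.246, edgeR adjusted p = 0.1916). The value was 0.018 without SW620 day 15, and it passed at 0.558 without SW620 day 12 (edgeR adjusted p = 0.04319).

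CDKN3, whose transcript is known to peak late in the cell cycle, was at 177, 153, 24.9 and 32.4 CPM in SW620 and at 192, 145, 50.5 and 30.5 in SW620-TET2CD. Between neighbouring days, the step from day 9 to day 12 was the 1 at which it passed the test below (late against early log2 fold change -2.39, SE 0.214, edgeR adjusted p = 1.885e-05).

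Within the RB family, RBL2 rose while RBL1 fell. RBL2 was at 17.3, 19.2, 39.9 and 39.3 CPM in SW620 and at 15.4, 19.3, 32.4 and 48.4 in SW620-TET2CD (log2 fold change 1.05, SE 0.132, edgeR adjusted p = 0.0001095). RBL1 was at 15.2, 13.8, 4.04 and 4.20 CPM in SW620 and at 15.2, 14.6, 6.04 and 6.82 in SW620-TET2CD (log2 fold change -1.62, SE 0.140, edgeR adjusted p = 1.619e-05). For both genes the early and late ranges did not overlap. RB1 was at 24.4, 23.2, 18.3 and 14.6 CPM in SW620 and at 24.0, 28.8, 24.3 and 27.6 in SW620-TET2CD. Its early and late ranges overlapped, and its fall was small (log2 fold change -0.39, SE 0.123, edgeR adjusted p = 0.01864). On the log2 (CPM + 1) scale, late minus early was -0.515 in SW620 and -0.019 in SW620-TET2CD. RB1 did not pass the interaction test below (0.407, SE 0.235), which does not show that the lines moved alike. The RB1 call was lost without the SW620 day 6 library (edgeR adjusted p = 0.05878) and with upper-quartile scaling (edgeR adjusted p = 0.1633), and likewise without the block, with every barcode and with no upper limits on cells (edgeR adjusted p from 0.05436 to 0.06737). That scaling moved the median log2 fold change of all genes from 0.039 to 0.208 and the share of calls that were higher from 51% to 63.4%, and all 10 members kept their direction under it.

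Neighbouring days placed these changes. From day 6 to day 9 no member passed, and 0.887% of all 17478 genes did. CDKN2B had the largest value, 0.86 (SE 0.192, edgeR adjusted p = 0.06397), and it passed with DESeq2 (0.83, adjusted p = 0.008731). From day 9 to day 12, when 42% of all genes passed, 8 members did. CDKN1A, CDKN1B, CDKN1C, CDKN2B and RBL2 rose, and CDKN2C, CDKN3 and RBL1 fell. From day 12 to day 15, when 13% of all genes passed, CDKN1A rose by 1.47, CDKN1B by 0.66, CDKN2B by 1.70 and CDKN2D by 0.91 on the log2 scale, with edgeR adjusted p of 0.004306, 0.01221, 0.0009063 and 0.01381. CDKN1C and the 3 RB family genes did not pass in this last step.

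Lists of genes around the members in the pathway went different ways. Over all 16993 genes tested, 29.4% rose and 28.3% fell on the late days, and the counts below stand beside these shares. Of 11 cyclins and CDKs, 8 fell and 0 rose, led by CCNA2 at -2.74 and CCNB1 at -2.70 on the log2 scale, which encode the cyclins of S phase and mitosis. Of 15 E2F and DREAM complex genes, 10 fell and 1 rose, among them E2F8 at -3.27, E2F1 at -3.02 and TFDP2, an E2F partner, at 0.33. Of 12 genes for turnover of the inhibitors, 10 fell, with CDC20 at -2.69 and DTL, which targets p21 for degradation, at -2.49. Among 20 p53 targets 11 rose and 6 fell, from BBC3 (PUMA) at 3.57 and GDF15 at 1.90 to TP53I3 at -1.48 and DDB2 at -1.06. Of 12 genes linked to quiescence, 10 rose, led by TXNIP at 3.099 and PIK3IP1 at 2.29. The median over all genes was 0.039, and the medians of these lists were -1.61, -0.67, -0.57, 0.44 and 1.28.

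Cells differed in cycle state, so the members were also measured within classes of cells. G2/M-high cells were the 10% of kept cells with the highest share of their UMIs in 47 G2/M genes. S-high cells were the 10% with the highest share in 35 S phase genes, less those that were G2/M-high. Cycle-low cells were the lower 50% by the summed share of both lists, less any in the other classes. No member is in these lists. Since cycle-low cells were picked for a low share of both lists, the next 2 counts are in part fixed by that choice. Against cycle-low cells, 46 of the 47 G2/M genes were also higher in S-high cells, beside 24% of all genes. In G2/M-high cells 31 of the 35 S phase genes were higher, beside 24.8%. The contrasts with cycle-low cells therefore do not separate S phase from G2/M. The classes are ranges of a score, and 2346, 4559 and 1329 cells lay within 10% of the 3 limits. Cycle-low cells made up 14.3 to 26.0% of the early libraries and 81.0 to 93.1% of the late ones, and G2/M-high cells 12.6 to 18.3% and 1.86 to 3.80%.

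Within libraries, G2/M-high and cycle-low cells differed in 9 members, beside 52.1% of 14943 genes (edgeR, library as a block). CDKN3 was at 271 to 353 CPM in G2/M-high cells of all 8 libraries and at 11.8 to 64.7 CPM in cycle-low cells (log2 fold change 3.43, SE 0.291, edgeR adjusted p = 8.121e-08). In G2/M-high cells it was at 271 to 300 CPM in the early libraries and at 286 to 353 CPM in the late ones, and these ranges overlapped, while over all cells they did not. RBL1 was higher by 1.84 (SE 0.0997), CDKN2D by 1.72 (SE 0.145) and CDKN2C by 1.21 (SE 0.178) on the log2 scale. CDKN1B was higher by 0.48 and RB1 by 0.21. The RB1 call was lost without SW620-TET2CD day 6 (0.179, edgeR adjusted p = 0.061) and without SW620-TET2CD day 9 (0.178, edgeR adjusted p = 0.07268). CDKN1A at -1.19 (SE 0.240), CDKN1C at -1.12 (SE 0.112) and CDKN2B at -0.43 (SE 0.109) were lower in G2/M-high cells. RBL2 did not pass (0.12, edgeR adjusted p = 0.1813). The CDKN1A value rests on few UMIs: SW620 day 12 had 73 G2/M-high cells, and its 3930 kept cells held 205 CDKN1A UMIs in all.

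**Figure D2:**
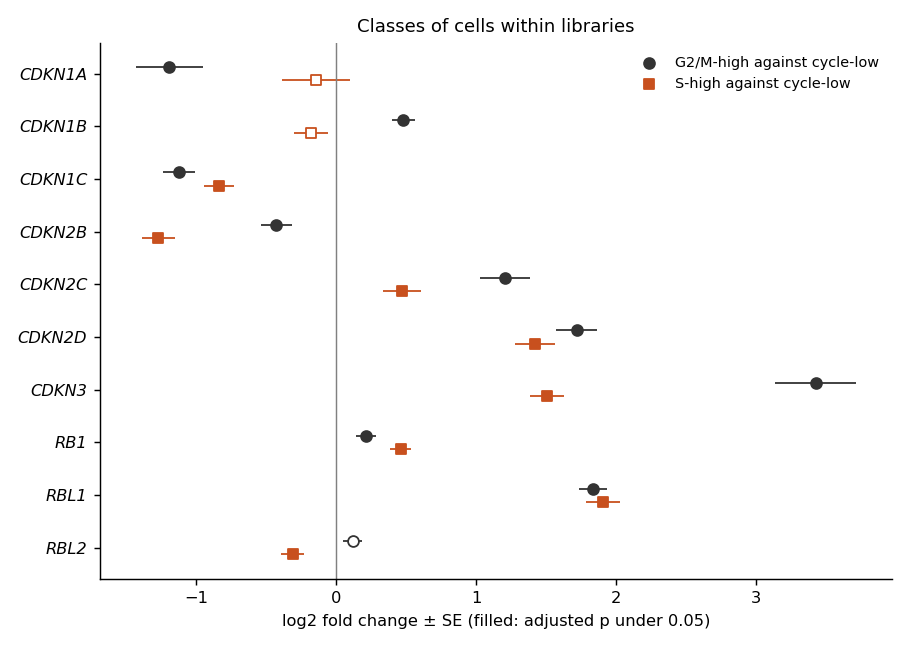
Log2 fold change with its standard error for each member in G2/M-high cells (circles, 8 libraries) and S-high cells (squares, 6 libraries) against cycle-low cells of the same libraries, with filled symbols for an adjusted p under 0.05. CDKN3 stands at 3.43 in G2/M-high cells and 1.51 in S-high cells, and CDKN1C is below 0 in both.

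S-high cells could be compared in 6 libraries, since those of SW620 on days 12 and 15 held fewer than 50. There 8 members passed, beside 53.6% of 14551 genes. RBL1 was higher by 1.91 (SE 0.121), CDKN3 by 1.51 (SE 0.119), CDKN2D by 1.42 (SE 0.146), CDKN2C by 0.47 (SE 0.134) and RB1 by 0.46 (SE 0.0759). The CDKN2C call was lost with wider classes, the top 20% against a narrower low class (0.167, edgeR adjusted p = 0.3199). CDKN2B was lower at -1.27 (SE 0.118), as were CDKN1C at -0.84 (SE 0.105) and RBL2 at -0.31 (SE 0.0815). CDKN1A and CDKN1B did not pass, although CDKN1B did with the wider classes (-0.492, edgeR adjusted p = 0.01037).

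Among cycle-low cells alone, 7 members passed between late and early days, beside 41.4% of 15800 genes. CDKN2B rose by 2.38 (SE 0.429), CDKN2D by 1.81 (SE 0.301), CDKN1B by 1.16 (SE 0.189), CDKN1C by 1.06 (SE 0.154) and RBL2 by 1.05 (SE 0.126) on the log2 scale. CDKN2D, which did not pass over all cells, was at 3.79 to 4.83 CPM in early and 10.1 to 23.9 CPM in late cycle-low cells (edgeR adjusted p = 0.000972). CDKN3 was lower at -1.88 (SE 0.173) and CDKN2C at -0.86 (SE 0.203). RBL1 at -0.41 (edgeR adjusted p = 0.101), RB1 at -0.08 (0.6797) and CDKN1A at 1.05 (0.06836) did not pass. CDKN1A passed without SW620 day 12 (1.267, edgeR adjusted p = 0.0206) or SW620-TET2CD day 12 (1.315, edgeR adjusted p = 0.01305), and was at 0.53 without SW620 day 15. The class was not alike at both times: 28 of the 35 S phase genes and 32 of the 47 G2/M genes were also lower in late cycle-low cells, and their part in the falls of CDKN3 and CDKN2C was not tested.

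**Figure D3:**
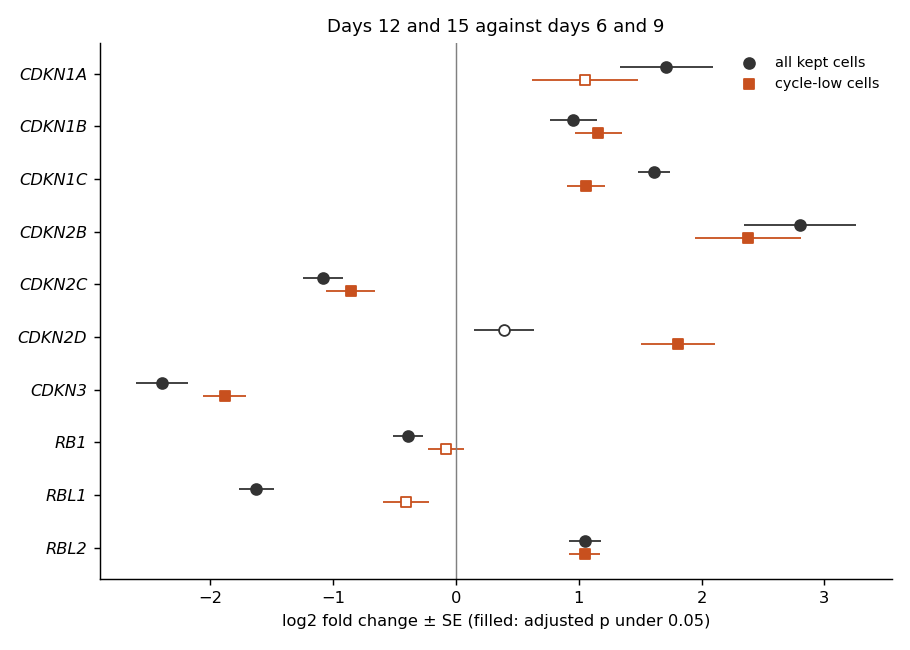
Log2 fold change of days 12 and 15 over days 6 and 9 with its standard error for each member, in all kept cells (circles) and in cycle-low cells (squares) of 8 libraries, with filled symbols for an adjusted p under 0.05. CDKN2D moves from 0.39 in all cells to 1.81 in cycle-low cells, and RBL1 from -1.62 to -0.41.

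The next question was whether TET2CD changed the members. Across the 4 days, 1 member passed, CDKN2C, beside 4.32% of 17478 genes (edgeR, day as a block). Its level was below that of SW620 at 4 of 4 time points (log2 fold change -0.58, SE 0.126, edgeR adjusted p = 0.02402). The call was lost when any of the 4 libraries of days 6 and 9 was left out (edgeR adjusted p from 0.0656 to 0.09698). CDKN1C was also lower on 4 of 4 days and did not pass (-0.38, SE 0.101, edgeR adjusted p = 0.0597), although it did with DESeq2 (adjusted p = 0.03879), without a filter, with every barcode and with no upper limits on cells (edgeR adjusted p of 0.006394, 0.02365 and 0.0229). CDKN1B was lower on 4 of 4 days as well and did not pass (-0.20, edgeR adjusted p = 0.3588). These counts of days held in CPM and in CPM scaled by the TMM factors. RBL1 did not pass (0.21, edgeR adjusted p = 0.468), and it was higher on 4 days in CPM and on 2 days once scaled. RB1 was at 14.6 CPM in SW620 and 27.6 CPM in SW620-TET2CD on day 15. Its log2 difference that day was 0.875 in CPM + 1 and 0.625 in CPM scaled by the TMM factors. Over all days the RB1 difference of 0.29 (SE 0.110) did not pass (edgeR adjusted p = 0.2132). Whether the late change differed between the lines was tested by an interaction. By edgeR 0% of genes passed (141 of 17478 at an unadjusted p under 0.05) and no member did. Changes between the 2 days of each side add to the spread in this fit (SE 0.883 for CDKN2B). The lack of calls therefore does not show that the lines moved alike.

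**Figure D4:**
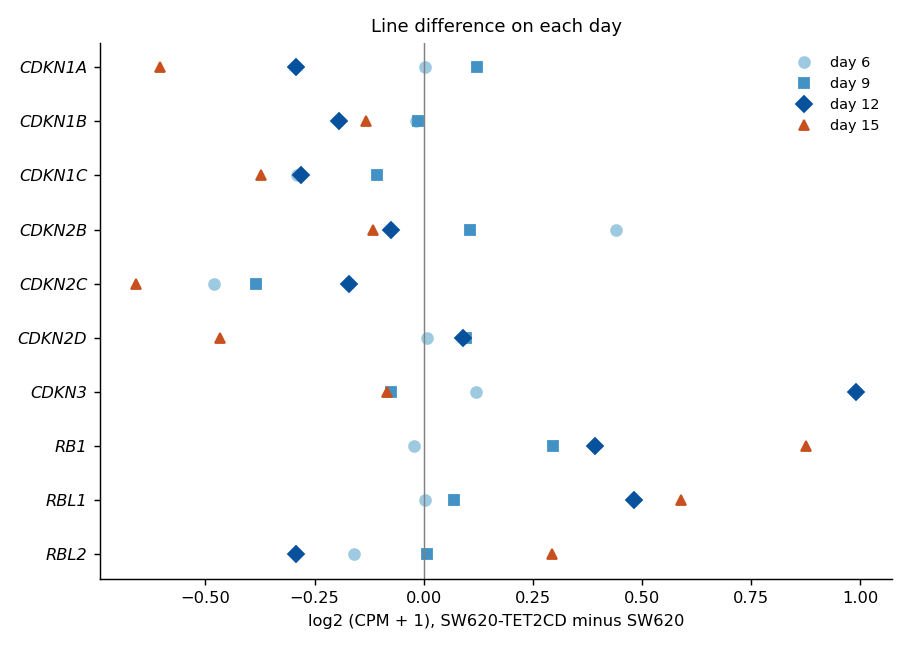
Difference in log2 (CPM + 1) between SW620-TET2CD and SW620 for each member, with 1 symbol for each of days 6, 9, 12 and 15. CDKN1B, CDKN1C and CDKN2C lie below 0 on all days, RBL1 lies between 0.002 and 0.589, and RB1 reaches 0.88 on day 15.

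Within the SW620-TET2CD line, 2160 cells with at least 3 TET2 UMIs (TET2-high) were compared with 18780 cells with none. CDKN1C was the 1 member that passed, beside 18% of 16149 genes. It was at 18.6, 21.1, 53.9 and 61.1 CPM in TET2-high cells and at 12.8, 13.1, 38.9 and 46.9 CPM in cells with none on days 6, 9, 12 and 15. The TET2-high cells were higher in 4 of 4 libraries (log2 fold change 0.37, SE 0.0796, edgeR adjusted p = 0.004773). The call was lost with at least 5 TET2 UMIs (0.061, edgeR adjusted p = 0.793) and without day 9 (0.32, edgeR adjusted p = 0.06283). TET2-high cells held a median of 11457 UMIs against 9522 in the others, and the part of depth was not tested.

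Bulk RNA-seq gave TPM values (transcript abundances scaled to a fixed sum), which are per length and can be set beside each other between genes. CDKN1A was at 67.7 TPM in SW480 and 1.90 TPM in SW620 on day 6, and CDKN2B at 7.43 TPM in SW480 and 63.3 TPM in SW620. On the log2 (CPM + 1) scale SW480 differed from SW620 by 4.65 for CDKN1A, by -3.27 for CDKN2B, by 1.24 for CDKN1B and by 1.22 for CDKN1C, with 1 library each and no test, and 23.8% of 15486 genes differed by 2-fold or more. The other 6 members differed by less than 2-fold on that scale. RB1 differed by 0.831 there, and was at 50.1 TPM in SW480 and 22.9 TPM in SW620.

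**Figure D5:**
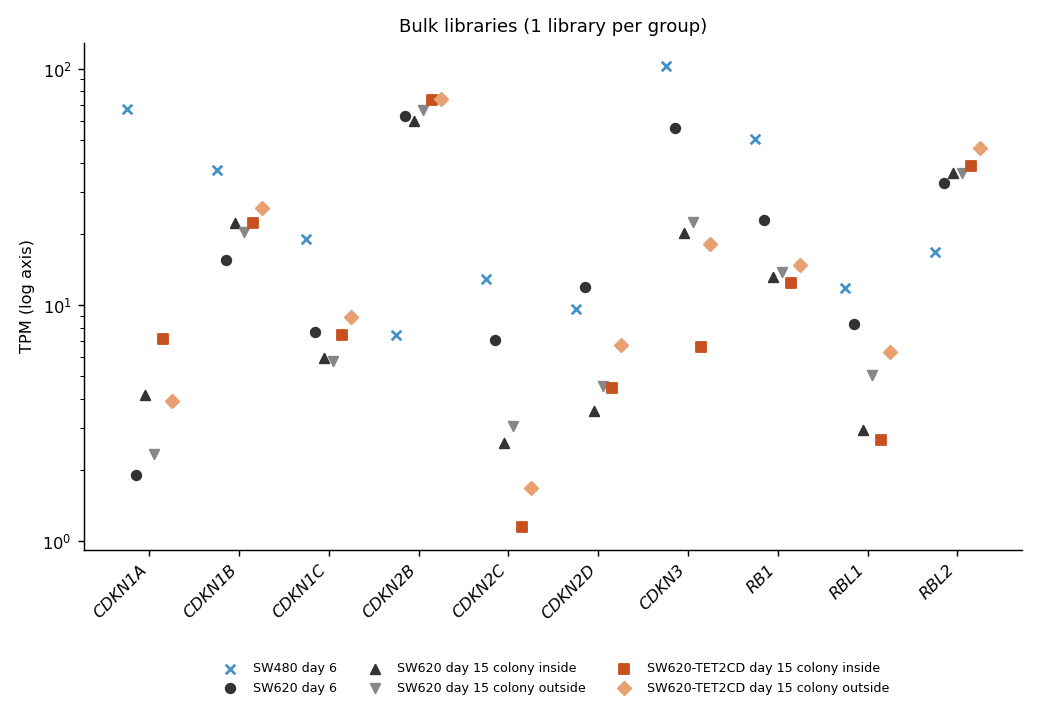
TPM of the 10 members (log axis) in the 6 bulk libraries, with 1 library per symbol. CDKN1A is at 67.7 TPM in SW480 and between 1.90 and 7.13 TPM in the SW620 lines, and CDKN2B is between 59.8 and 74.1 TPM in those lines.

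From day 6 to day 15 the bulk SW620 libraries followed the single cells in direction for some members and not for others. CDKN3 went from 55.9 TPM to 20.1 inside and 22.3 outside, RBL1 from 8.28 to 2.94 and 5.05, and CDKN2C from 7.12 to 2.60 and 3.08. RB1 went from 22.9 TPM to 13.2 and 13.7. These 4 genes were lower on day 15 in bulk, and lower late against early in single cells, RB1 mainly in SW620. CDKN1A went from 1.90 TPM to 4.16 inside and 2.34 outside, CDKN1B from 15.5 to 22.1 and 20.4, and RBL2 from 32.9 to 36.0 and 36.1. These 3 were higher on day 15 in bulk, and higher late against early in single cells. On the log2 (CPM + 1) scale the bulk steps inside and outside were 0.848 and 0.282 for CDKN1A and 0.535 and 0.47 for CDKN1B. For RBL2 they were 0.183 and 0.24, with 1 library each and no test. CDKN2B was at 63.3 TPM on day 6 and at 59.8 inside and 67.0 outside on day 15, and CDKN1C at 7.68, 5.97 and 5.77, whereas both were higher on the late days in single cells. CDKN2D went from 11.9 TPM to 3.56 and 4.53, against a rise on day 15 in single cells. In all, 8.17% of genes differed by 2-fold or more inside and 7.16% outside. In GENCODE 44, CDKN2B shares 0 exon bases with its antisense gene CDKN2B-AS1 (5.56 TPM on day 6), and RB1 shares 0 with LPAR6. The single-cell libraries read transcript ends, and the part of the assay in these differences was not tested.

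Between the outside and the inside of colonies on day 15, no member passed and 0% of 17722 genes did by edgeR, with the line as a block and 1 residual degree of freedom (1068 at an unadjusted p under 0.05, 22 with DESeq2). CDKN1A was at 4.16 TPM inside and 2.34 outside in SW620 and at 7.13 and 3.90 in SW620-TET2CD (log2 fold change -0.86, SE 0.237, edgeR adjusted p = 0.7722, and from -1.25 to -0.41 with each library left out). RBL1 was at 2.94 and 5.05 TPM in SW620 and at 2.67 and 6.31 in SW620-TET2CD (0.66, SE 0.205, edgeR adjusted p = 0.7722). Between the lines 0.412% of genes passed and no member did. CDKN2C was at 2.60 and 3.08 TPM in SW620 and at 1.15 and 1.67 in SW620-TET2CD (-1.02, SE 0.339, edgeR adjusted p = 0.2078). CDKN1C was at 5.97 and 5.77 TPM in SW620 and at 7.44 and 8.91 in SW620-TET2CD (0.47, SE 0.218, edgeR adjusted p = 0.3103), and CDKN1A differed by 0.70 (SE 0.237, edgeR adjusted p = 0.2106, and from 0.141 to 1.15 with each library left out). The line difference in CDKN3 was -0.99 (SE 0.357, edgeR adjusted p = 0.2283), and it passed without a filter on low counts (edgeR adjusted p = 0.0131). The bulk value on day 15 and the single-cell value over 4 days had opposite signs for 8 of 10 members. No share over all genes was taken for this, so the count says little about these members in particular. Some of the values lay near 0, such as CDKN2B in single cells (-0.017) and RB1 in bulk (-0.045). CDKN1A, CDKN1C and CDKN3 were among them, and none of these 8 passed in either of the main tests. On day 15 alone, scaled by the TMM factors, the single-cell log2 ratios of CDKN3 (-0.38) and RBL2 (0.006) had the sign of bulk. The others of the 8, such as CDKN1A (-0.964) and CDKN1C (-0.674), kept the opposite sign.

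For each member with a mean of at least 8 CPM, the genes with the most similar levels over the 8 single-cell libraries were taken from 8716 candidates by Pearson's r of log2 (CPM + 1). The libraries share days and lines, so r is a description. CDKN3 was closest to OIP5 (r = 0.9987), with CDCA3 also among its 3 closest, and RBL1 was closest to NAA15 (0.9975), XRCC2 and FANCB. RBL2 was closest to ROBO2 (0.9985), DHX32 and CSAD, CDKN1C to BHLHE40 (0.9949), FNTA and RAC2, and CDKN1B to JUP (0.9965), PLEC and TMC7. CDKN2B was closest to GOLPH3L (0.9963), PLEC and CDKN1B (0.9923). CDKN2C was closest to SLC10A3 (0.9897), CDKN2D to CRYBG2 (0.9701) and RB1 to RBM26 (0.983).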

How the data were processed

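Single-cell libraries (10x 3' v3.1) were processed by the authors with Cell Ranger 4.0 on GRCh38, and the deposited matrices hold UMI counts per gene and cell, not normalized. Bulk libraries (TruSeq) were processed by the authors with Bowtie and RSEM, and the deposited tables hold expected counts and TPM. The submitters' notes name mm10 for the bulk files, but their gene IDs are human, so for these files build and annotation are taken as not given in the sources used.

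The limits for keeping a cell were a gene number from 200 to 4500, a UMI number from 1000 to 20000 and a mitochondrial share of up to 10%, and counts were summed per library (and per class of at least 50 cells). No doublet caller was run, and dropping the top 8% of cells by UMI number was an alternative. CPM values are UMI counts over the total of the kept cells, scaled to 1000000. Expected counts were rounded, and 45 pseudoautosomal Y rows were left out. Differences were tested two-sided with edgeR 4.0.16 (quasi-likelihood, filterByExpr, TMM factors, Benjamini-Hochberg adjusted over all tested genes, threshold 0.05), with the blocks named in the text, and with DESeq2 1.42.0 as an alternative. SE is the log2 fold change divided by the square root of F. The fits were tested on simulated data. Other alternatives were no filter, other scaling, no block, other cell filters and class limits, and each library left out. Log2 ratios without a test used a pseudocount of 1.

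The members and all gene lists were chosen with earlier results of these data known. Named genes were all members, at most the 2 highest and 2 lowest called genes of each pathway list, the 3 genes most like each member (for CDKN2C, CDKN2D and RB1 the first, and for CDKN3 with 1 gene not reported here), and TET2. Total expected counts per bulk library were 16477779 to 25854058.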

Additional observations from a re-analysis of the deposited data

Results flagged for a closer look

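In the bulk libraries of day 15 a few members moved opposite ways in groups of 1 library each, and whether these groups differ was not tested. For CDKN1B, outside minus inside on the log2 (CPM + 1) scale was -0.065 in SW620 and 0.114 in SW620-TET2CD. SW620-TET2CD minus SW620 was -0.015 inside and 0.164 outside for CDKN1B, -0.15 and 0.041 for RB1, and -0.247 and 0.32 for RBL1. Among 20 sets of 4 early or 4 late single-cell libraries, 2 for each member, 0 held a library far from the others by Dixon's criterion. For 4 values drawn alike, chance meets it in about 1 of 20. Each set pooled 2 days and both lines, and changes between days widen its range. A count of 0 therefore does not show that no library was unusual.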

How the results depend on the processing

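Of 920 values of single members under alternatives, 836 kept their direction and side of the threshold, 15 lost a call, 18 gained one and 51 changed sign. The cause was not tested. Each sign change concerned a value that had not passed.

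For the line difference in single cells, 755 genes and 1 member passed. Without a filter these were 1489 and 2, without the day block 46 and 0, and 2 members (CDKN1C and CDKN2C) passed with DESeq2, without a filter, with every barcode and with no upper limits. Leaving out each library gave 440 to 774 genes (440 without SW620 day 9, 458 without SW620-TET2CD day 9) and 0 to 1 member. CDKN2B was 0.021 with upper-quartile factors. Leave-one-out ranges crossed 0 for CDKN2B (-0.174 to 0.136), CDKN2D (-0.269 to 0.035) and CDKN3 (-0.151 to 0.305).

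For the interaction, 15 genes passed without a filter, where RBL2 was 0.001. Its leave-one-out ranges were -1.552 to 0.226 for CDKN1A, -0.633 to 0.126 for CDKN1B, -0.493 to 0.002 for CDKN1C, -1.523 to 0.625 for CDKN2B, -0.419 to 0.146 for CDKN2C, -1.022 to 0.298 for CDKN2D, -0.139 to 0.709 for CDKN3 and -0.271 to 0.183 for RBL2.

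From day 6 to day 9, 396 genes and 1 member (CDKN2B) passed with DESeq2 and 978 and 1 (CDKN2B) without a filter, and CDKN2D was -0.019 and -0.009. In cycle-low cells RB1 was 0.076 with the other class limits, with a leave-one-out range of -0.2 to 0.011. RBL2 in G2/M-high cells was -0.077 with the wider high class and the narrower low class together. CDKN1A in S-high cells ranged from -0.322 to 0.187.

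For TET2-high cells, 0 members passed with at least 5 TET2 UMIs. Leaving out each library gave 1519 to 2636 genes (1519 without day 9, 1740 without day 12, against 2907) and 0 to 2 members, CDKN2B passing without day 6 (-1.01). CDKN2D was -0.003 with DESeq2. Ranges were -0.67 to 0.115 for CDKN1A, -0.295 to 0.012 for CDKN1B, -0.168 to 0.296 for CDKN2D, -0.08 to 0.056 for RBL1 and -0.164 to 0.007 for RBL2.

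In bulk, outside against inside gave 22 genes with DESeq2 and 472 without a filter. Leaving out a library, without the block, gave -1.25 to -0.41 for CDKN1A, -0.09 to 0.059 for CDKN1B, -0.165 to 0.444 for CDKN1C, -0.12 to 0.148 for CDKN2B, -0.317 to 1.007 for CDKN2C, -0.038 to 1.626 for CDKN3 and -0.038 to 0.186 for RBL2. The bulk line difference gave 710 genes with DESeq2, 2239 genes and 1 member without a filter, and 0 to 4191 genes and 0 to 3 members with each library left out (0 without either SW620 library, 4191 without SW620-TET2CD inside, 2950 without SW620-TET2CD outside). CDKN1A ranged from 0.141 to 1.15, CDKN3 from -1.734 to -0.325, RB1 from -0.172 to 0.075 and RBL1 from -0.435 to 0.499. A lone library was then assumed to vary like the others.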
